A study of Mus musculus with 9 samples.

Results

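DNA replication and repair genes were examined in sorted cells that the study calls microglia-like, after a transient ischemic attack (TIA) in mice. Microglia are the brain-resident immune cells. The list held 50 genes whose products copy DNA, sense damage to it, halt the cell cycle or repair the lesion, and members were matched to the table by symbol. Of these, 48 were among the 757 genes of the table, and Ercc6 and Palb2 were not analysed here. The measured members comprised 12 replication genes, 13 checkpoint and cell cycle genes, 8 genes of base excision repair and direct reversal, 2 of nucleotide excision repair, 2 of mismatch repair, 10 of homologous recombination and the Fanconi pathway, and 1 of end joining.

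Before a cell divides, the MCM helicase is loaded on origins and opens the helix, the sliding clamp PCNA holds the polymerases on the template, and E2F factors switch on many of the genes involved. Damage or stalled forks activate the kinases ATM and ATR, which pass the signal to CHEK2 and CHEK1 and hold the cell cycle while repair proceeds. In the adult brain most microglia are not dividing, yet they can proliferate after injury, and ischemia with reperfusion is a known source of oxidative lesions in DNA.

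The groups were Sham, TIA 24h and TIA 3d, with 3 samples each. The methods list wild-type C57BL6/J mice among several lines, as young adults apart from an aged cohort. The study gives males for this experiment, and the line and cohort are not stated for it in the sources used here. In the TIA groups a filament closed the middle cerebral artery for a few minutes, and Sham mice had the same surgery without insertion of the filament. Brains were taken 24 h or 3 d after the TIA and placed in a solution with actinomycin D, an inhibitor of transcription, in every group. The time of collection of the Sham mice is not given in the sources used here. Sorting took live cells, unstained by 7-AAD, that carried both CD45 and CD11b, a gate that other myeloid cells can also pass. Their RNA was counted with a panel of barcoded probes, without amplification. The sources give 3 mice per condition. Values are log2 of counts normalized to housekeeping probes, and the whole counts behind them could be recovered. Because RNA of sorted cells was pooled within each sample, fewer cells of a type and less RNA per cell cannot be told apart.

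Lanes differed in depth. Total counts over all 757 genes were 6560 to 25582 for Sham, 7248 to 10929 for TIA 24h and 29200 to 62883 for TIA 3d. The 15 microglial markers measured, of 18 on their list, summed to normalized levels of 490.9 to 7349 for Sham, 446.7 to 1311 for TIA 24h and 6770 to 8721 for TIA 3d, so the TIA 24h lanes and Sham replicate 3 carried little microglial signal. All 15 were counted in every lane, and all 15 were higher at TIA 3d than TIA 24h by limma at an adjusted p under 0.05. The 13 oligodendrocyte markers measured summed to 146.6 to 984 for Sham, 402.8 to 1010 for TIA 24h and 117.8 to 185.9 for TIA 3d. Depth and marker content moved with the time point, and their part in the results that follow was not tested.

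Promoter sequences were read to show what these genes have in common beyond their function. Of the 48 members, 41 had a window in the RefSeq promoter table (GRCm38.p6), and the 250 bases before the annotated start were searched on both strands. One of the E2F motifs TTTGGCGC, TTTCGCGC, TTTCCCGC or TTTGCCGC was found in 10 of the 41 members, or 24.4%, against 2.16% of the 27025 genes with a window. The 10 members were Bard1, Cdc25a, Chek2, Fancg, Mcm5, Mcm6, Mdc1, Nthl1, Topbp1 and Xrcc6. The starts used for Fancg and Xrcc6 lie 266 and 28536 bases inside the annotated genes, so their windows do as well. Those of Chek2 and Topbp1 lie 183 and 160 bases inside, so that for 4 of the 10 members the match itself is within the annotated gene, and the match of Cdc25a reaches 2 bases into it. The cell cycle homology region TTTGAA was found in 6 members, or 14.6%, against 18.3% of all genes. Matches describe letters in a window and do not show binding.

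The MCM windows shown here are those in which TTTGGCGC and TTTCGCGC overlapped on opposite strands, and Pcna and Chek1 are shown because these genes passed the threshold between the time points below. Capitals mark E2F motifs, and each run is the 250 bases before the start, 5′ to 3′ on the strand of the gene. Neither the Pcna nor the Chek1 window held one of the motifs. Fancd2, which also passed, is named only. The start used for E2f1 lies 466 bases inside the annotated gene, so its window does as well and is not shown.
Pcna (chr2:132253181-132253430, minus strand): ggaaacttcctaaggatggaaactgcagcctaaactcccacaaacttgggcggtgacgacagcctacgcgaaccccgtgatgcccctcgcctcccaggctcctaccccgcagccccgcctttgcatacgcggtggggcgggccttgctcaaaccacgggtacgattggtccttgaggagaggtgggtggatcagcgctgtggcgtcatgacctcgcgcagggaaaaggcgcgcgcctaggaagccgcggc
Chek1 (chr9:36726659-36726908, minus strand): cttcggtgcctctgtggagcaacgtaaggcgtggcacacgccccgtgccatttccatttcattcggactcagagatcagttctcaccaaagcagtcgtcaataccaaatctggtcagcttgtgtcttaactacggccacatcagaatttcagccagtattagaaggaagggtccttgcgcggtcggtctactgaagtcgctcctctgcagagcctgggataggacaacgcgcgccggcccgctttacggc
Mcm5 (chr8:75109259-75109508, plus strand): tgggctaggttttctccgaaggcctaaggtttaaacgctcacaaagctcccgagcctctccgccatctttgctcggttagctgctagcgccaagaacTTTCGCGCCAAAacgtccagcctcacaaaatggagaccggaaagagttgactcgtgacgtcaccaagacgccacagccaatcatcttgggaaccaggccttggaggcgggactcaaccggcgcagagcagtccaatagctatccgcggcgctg
Mcm6 (chr1:128359706-128359955, minus strand): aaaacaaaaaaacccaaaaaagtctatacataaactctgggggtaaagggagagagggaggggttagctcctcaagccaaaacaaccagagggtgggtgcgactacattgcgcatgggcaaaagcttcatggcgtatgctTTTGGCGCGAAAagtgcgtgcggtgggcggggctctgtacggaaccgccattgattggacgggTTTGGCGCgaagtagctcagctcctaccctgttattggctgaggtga

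Among the 10 members with an E2F motif, differences between TIA 3d and TIA 24h ran from −1.40 to 0.63 on the log2 scale with a median of −0.52. Of these, 9 were below 0, beside 41 of all 48 members and 57.9% of all genes, and 0 passed the test, beside 19.2% of all genes.

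Members were counted at low levels. The median member had 7 to 10 counts per lane for Sham, 7 to 10 for TIA 24h and 13 to 15.5 for TIA 3d. Of the 432 member values, 198 lay under 10 counts (45.8%) and 7 stood at 1 count, the lowest in the table. Only 10 members ever reached 30 counts in a lane, and besides Pcna none went above 54.

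These counts were close to those of blood leukocyte and neuronal markers. The 12 blood leukocyte markers held the T cell gene Cd3e, and also Ccr2 and Ly6g, genes of other myeloid cells, which the gate can pass. The leukocyte markers had median counts of 6.5 to 10 for Sham, 7 to 8.5 for TIA 24h and 9 to 12.5 for TIA 3d. The 12 neuronal markers had 5 to 11, 8 to 8.5 and 10 to 13.5. Counts of different probes are set side by side here only to show the depth, and negative control probes were not among the genes used here. Whether a low member count lay above the background of its lane was not tested.

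**Figure D1:**
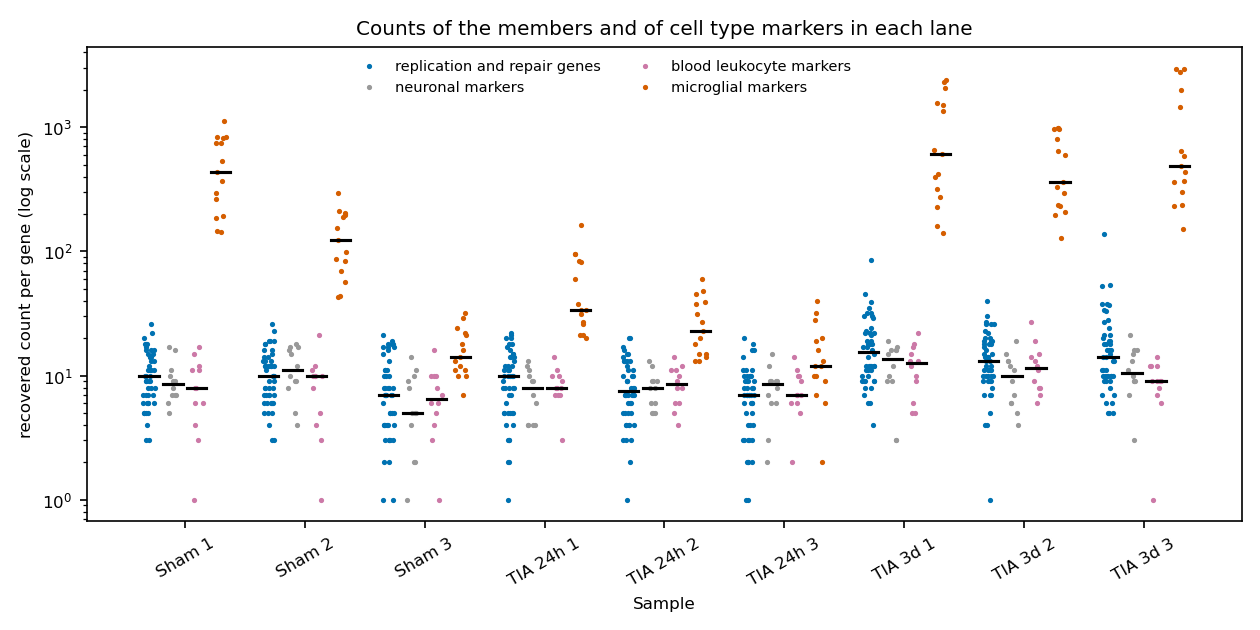
Recovered counts per gene on a log axis in each of the 9 samples, for the 48 replication and repair genes, 12 neuronal, 12 blood leukocyte and 15 microglial markers. Points are genes and black bars medians. Members lay near the neuronal and leukocyte markers in every lane, whereas microglial markers rose from medians of 12 to 34 counts at TIA 24h to 364 to 605 at TIA 3d.

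Members took 2.03% to 6.17% of all counts for Sham, 4.36% to 5.25% for TIA 24h and 1.52% to 2.39% for TIA 3d. Their summed counts nevertheless were highest at TIA 3d, at 699 to 953, against 405 to 521 in Sham and 355 to 477 at TIA 24h. On the normalized scale the order turned, with summed levels of 501.5 to 596.6 at TIA 3d, 672 to 768.7 at TIA 24h and 497.4 to 795.3 in Sham. The direction of a member between these groups therefore has to be read together with the scaling of the lanes.

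**Figure D2:**
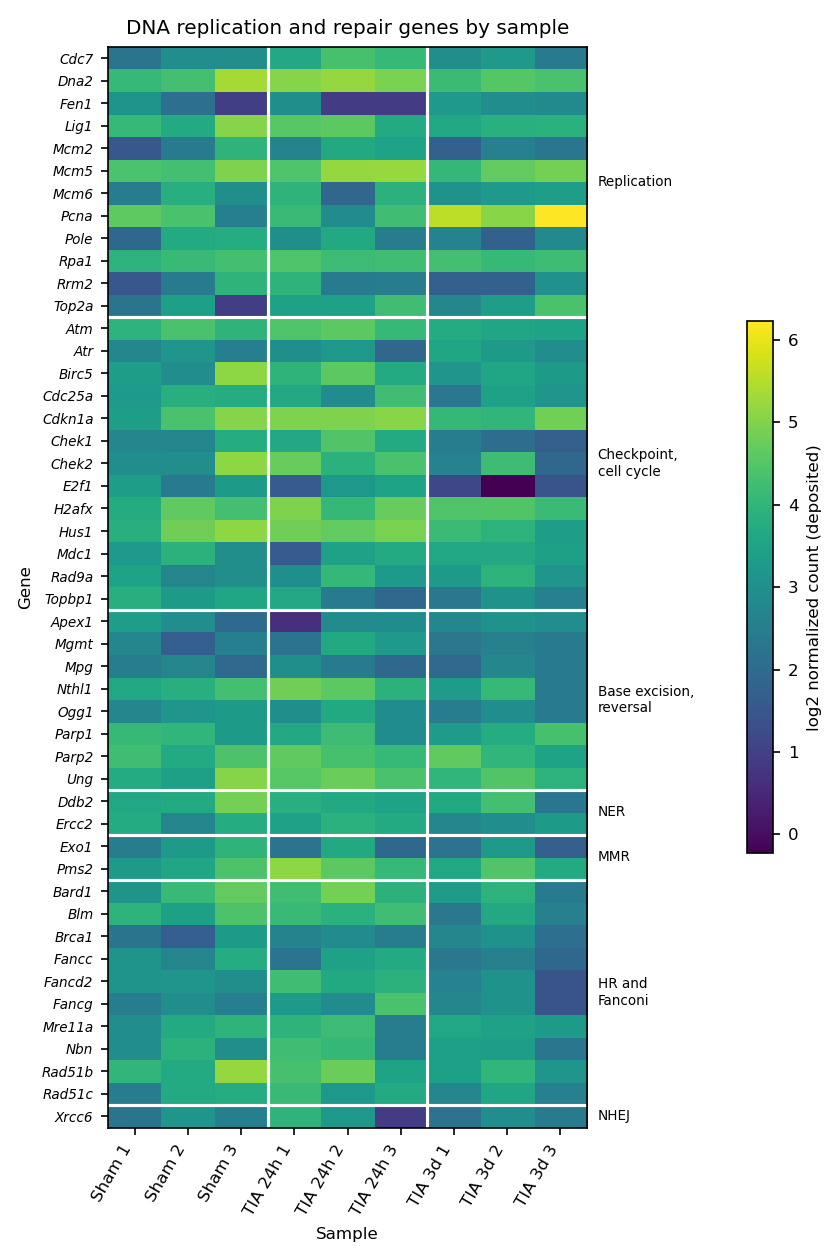
Deposited log2 normalized counts of the 48 members (rows, by role) in the 9 samples (columns). NER, nucleotide excision repair; MMR, mismatch repair; HR, homologous recombination; NHEJ, non-homologous end joining. Pcna stands out at 5.09 to 6.23 in the TIA 3d samples, and E2f1 is lowest there, at −0.23 to 1.45.

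Whether any member changed over the time course was asked first. By the moderated F test of limma over the 3 groups, 0 of 48 members passed at an adjusted p under 0.05, as did 0.00% of all genes. At an unadjusted p under 0.05 there were 6 members, beside 31.0% of all genes. In an unmoderated linear model and in voom 0 members passed, beside 0 and 0.396% of all genes, whereas 8 passed with lane totals, 5 with no scaling and 7 with array weights, beside 23.9%, 33.7% and 37.5%. Without Sham replicate 1 or Sham replicate 3 there were 3 members each, beside 18% and 16.6% of all genes. The member nearest to the threshold was E2f1, with an adjusted p of 0.0564.

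At 24 h after TIA, no member differed from Sham in limma after adjustment, and the share of all genes past the threshold was 0.00%. The members' median difference was 0.24 on the log2 scale, beside 0.15 over all genes. Medians of markers here were −1.33 for microglial, 0.26 for neuronal, 0.73 for blood leukocyte and 0.85 for oligodendrocyte markers. At an unadjusted p under 0.05 there were 2 members, both replication genes and both higher at TIA 24h, beside 7.53% of all genes.

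Of these, Cdc7 encodes the kinase that fires loaded origins. Its log2 levels were 2.26, 2.93 and 2.97 in Sham and 3.66, 4.35 and 4.09 at TIA 24h, from 5, 7 and 4 against 8, 11 and 9 counts. The groups did not overlap on either scale, and the difference was 1.31 ± 0.41 (SE, n = 3 and 3, limma adjusted p = 0.628). Top2a, the topoisomerase that untangles replicated chromosomes and a usual marker of dividing cells, had 2.26, 3.45 and 0.97 in Sham and 3.46, 3.47 and 4.24 at TIA 24h. Its difference of 1.50 ± 0.61 (limma adjusted p = 0.647) also did not pass, and Sham replicate 3 gave a single count.

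Log2 values of Sham and TIA 24h did not overlap for 3 members, all higher at TIA 24h (Cdc7, Top2a and Fancd2), beside 9.78% of all genes, of which the higher made 8.06% and the lower 1.72%. On the recovered counts only Cdc7 was higher without overlap, against 1.45% of all genes, and only the damage sensor Ddb2 was lower, against 4.10%. Its log2 levels overlapped, with a difference of −0.40 ± 0.53. The lowest differences were those of Topbp1, an activator of ATR, at −0.88 ± 0.48, the exonuclease Exo1 at −0.65 ± 0.58 and the abasic site endonuclease Apex1 at −0.61 ± 0.59. None of them passed (limma adjusted p = 0.722, 0.783 and 0.797).

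At 3 d after TIA, again no member differed from Sham in limma, with 0.00% of all genes past the threshold. The members' median difference was −0.25, beside −0.01 over all genes, and 31 of 48 differences were below 0, beside 50.5% of all genes. Marker medians in this contrast were 1.51 for microglial, −0.75 for neuronal, −0.54 for blood leukocyte and −0.84 for oligodendrocyte markers. At an unadjusted p under 0.05 there were 4 members, Pcna higher and E2f1, Blm and Chek1 lower, against 19.6% of all genes. E2f1 differed most, by −2.25 ± 0.58 (limma adjusted p = 0.122), and the helicase gene Blm by −1.07 ± 0.45 (adjusted p = 0.216). Chek1 differed by −0.98 ± 0.45 (adjusted p = 0.246).

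Pcna was 1.78 ± 0.59 higher at TIA 3d than in Sham (limma adjusted p = 0.16, 95% interval 0.51 to 3.04). It was followed by Top2a at 1.27 ± 0.61 and by the flap endonuclease Fen1 at 0.94 ± 0.63 (adjusted p = 0.268 and 0.38). Pcna did pass without Sham replicate 1, at 2.17 (adjusted p = 0.0402), and with array weights, at 1.40 (adjusted p = 0.0318). Without Sham replicate 3 it was at 1.13 (adjusted p = 0.438), and with the log2 total count as a covariate at −0.0085 (adjusted p = 0.998). On the log2 scale 1 member was higher without overlap, Pcna, against 15.1% of all genes, and 5 were lower, against 9.11%. On the counts 16 members were higher without overlap, against 40.2% of all genes, and 0 were lower, against 0.264%.

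The comparison of TIA 3d with TIA 24h was the only one with members past the threshold. In limma 4 of 48 members passed, a share of 8.33% against 19.2% of all genes. Pcna was higher at TIA 3d, and E2f1, Chek1 and Fancd2 were lower. By direction these were 1 of 48 members against 11.6% of all genes higher and 3 of 48 against 7.53% lower.

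Pcna encodes the sliding clamp of the replication fork, which also serves excision and mismatch repair. Its log2 levels were 4.64, 4.38 and 2.56 for Sham, 4.12, 2.89 and 4.24 for TIA 24h and 5.58, 5.09 and 6.23 for TIA 3d. The counts behind them were 26, 19 and 3 for Sham, 11, 4 and 10 for TIA 24h and 85, 40 and 137 for TIA 3d. All TIA 3d values lay above every other value on both scales. The difference between TIA 3d and TIA 24h was 1.89 ± 0.59 (SE, n = 3 and 3, limma adjusted p = 0.044), a 3.70-fold higher level.

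The share of member counts that came from Pcna was 9.52%, 5.72% and 14.4% at TIA 3d, against 0.962% to 2.82% at TIA 24h and 0.741% to 5.01% in Sham. Within each lane this share does not depend on the lane factor. The lowest share at TIA 3d and the highest in Sham lay close together. With the log2 total count of the lane as a covariate its difference was −0.58 (limma adjusted p = 0.985), and with lanes scaled to their totals it was 0.94 and did not pass (adjusted p = 0.156).

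E2f1 encodes a transcription factor that drives entry into S phase. Its log2 levels were 3.40, 2.45 and 3.30 for Sham, 1.66, 3.21 and 3.51 for TIA 24h and 1.17, −0.23 and 1.45 for TIA 3d. On this scale TIA 3d lay below every value of the other groups, which overlapped each other. The difference between TIA 3d and TIA 24h was −1.99 ± 0.58 (limma adjusted p = 0.0379). The counts were 11, 5 and 5 for Sham, 2, 5 and 6 for TIA 24h and 4, 1 and 5 for TIA 3d, and there both TIA groups overlapped.

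Chek1 encodes the kinase that relays the ATR signal at stalled forks. Its log2 levels were 2.75, 2.71 and 3.78 for Sham, 3.66, 4.47 and 3.73 for TIA 24h and 2.49, 2.09 and 1.72 for TIA 3d, with a difference of −1.85 ± 0.45 between the TIA groups (limma adjusted p = 0.0235). The counts of 7, 6 and 7 for Sham, 8, 12 and 7 for TIA 24h and 10, 5 and 6 for TIA 3d overlapped. Fancd2, the Fanconi protein that is ubiquitinated at crosslinks, had 3.11, 3.13 and 2.97 for Sham, 4.24, 3.69 and 3.92 for TIA 24h and 2.63, 3.09 and 1.45 for TIA 3d. The difference was −1.56 ± 0.46 (limma adjusted p = 0.0379), and the counts of 12, 7 and 8 for TIA 24h and 11, 10 and 5 for TIA 3d overlapped as well.

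The lane factors shift the differences of all genes alike, and 1 count stood for 1.58 to 1.89 normalized units for TIA 24h and 0.548 to 0.853 for TIA 3d. With no scaling of lanes, which moved the median of all genes from −0.25 to 1.22, Pcna was at 3.35, E2f1 at −0.53, Chek1 at −0.39 and Fancd2 at −0.10. Relative to that median, by construction, the 4 genes stayed at 2.13, −1.75, −1.61 and −1.31. None of the 4 genes passed without TIA 24h replicate 2, TIA 24h replicate 3, TIA 3d replicate 1 or TIA 3d replicate 3. In each of these settings 0 of all 757 genes passed. Pcna and Fancd2 also did not pass without Sham replicate 2 (adjusted p = 0.0502 for both) or without TIA 24h replicate 1 (0.0669 and 0.0838), nor did E2f1 without TIA 3d replicate 2 (0.0914).

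**Figure D3:**
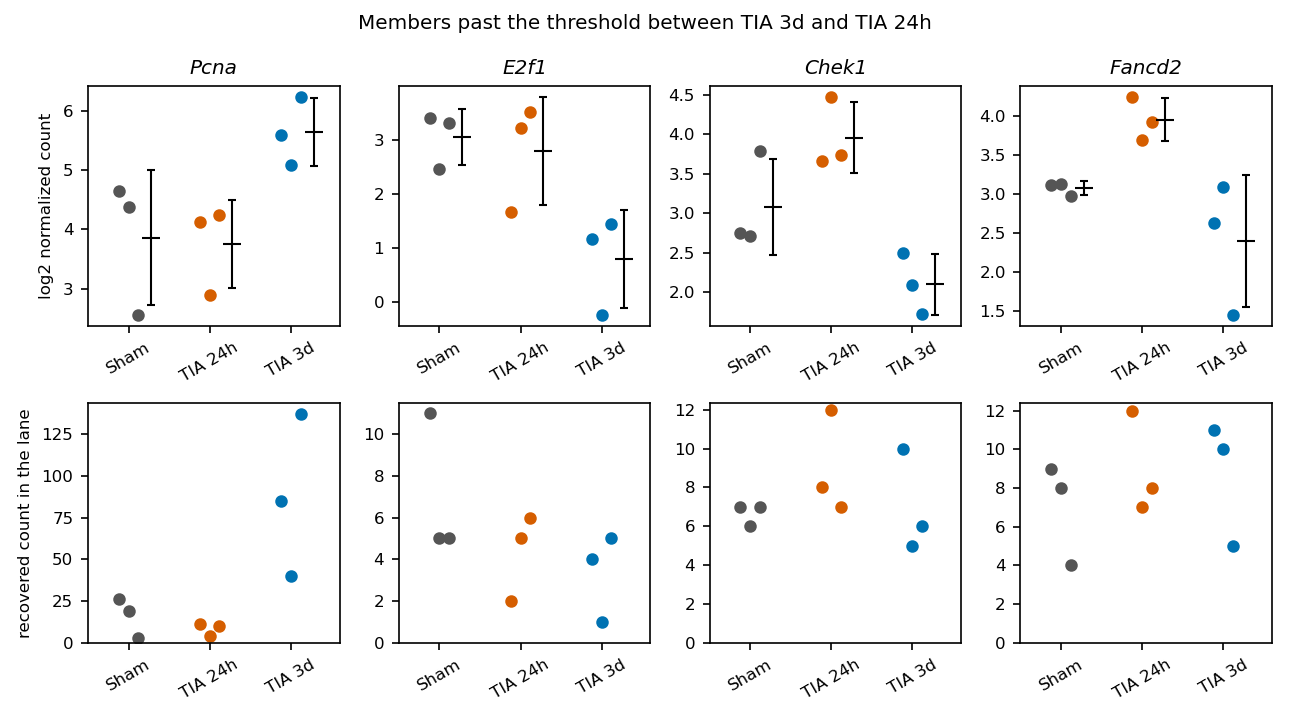
Pcna, E2f1, Chek1 and Fancd2 in each sample, as log2 normalized counts (top; bars are mean ± SD, n = 3) and as recovered counts on axes from 0 (bottom). TIA 3d and TIA 24h are apart for all 4 genes at the top, and for Pcna only, at 40 to 137 against 4 to 11 counts, at the bottom.

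Over the whole list, the median difference between TIA 3d and TIA 24h was −0.59, beside −0.25 over all genes. Differences were below 0 for 41 of 48 members, beside 57.9% of all genes. The same contrast had medians of 3.12 for the microglial markers, −0.87 for neuronal, −1.15 for blood leukocyte and −1.46 for oligodendrocyte markers. Log2 values did not overlap for 13 members, of which 12 were lower at TIA 3d, against 26.3% of all genes lower and 22.1% higher. On the counts 24 members were higher at TIA 3d without overlap and 0 were lower, against 56.3% and 0.396% of all genes.

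For 3 members, or 6.25%, the scales disagreed outright, beside 3.83% of all genes. Birc5, an inhibitor of apoptosis that also serves chromosome segregation, had 10, 13 and 7 counts for TIA 24h and 16, 14 and 18 for TIA 3d, but log2 levels of 3.98, 4.59 and 3.73 against 3.17, 3.58 and 3.30. Ercc2, a helicase of the repair and transcription factor TFIIH, had 7, 8 and 7 counts against 12, 9 and 18, with log2 levels of 3.46, 3.89 and 3.73 against 2.75, 2.94 and 3.30. The third was Dna2, a nuclease and helicase of Okazaki fragment processing, named here after its values were seen. All 3 were higher at TIA 3d in every count and lower in every normalized value, and none passed the test (limma adjusted p = 0.306, 0.233 and 0.232).

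The scaling set the balance of calls. As deposited, 1 member was higher and 3 were lower at TIA 3d than TIA 24h in limma. Scaled to the lane totals, 0 were higher and 25 lower, beside 45.4% of all genes past the threshold, and with no scaling 12 were higher and 0 lower, beside 44.1%. Centring each sample on its median gave 1 higher and 1 lower, and quantile normalization and the total count as a covariate gave 0 in both directions. The shift of the median of all genes in this contrast was −1.19 with lane totals, 1.22 with no scaling and 0.09 after centring. Relative to it, the members' median lay at −0.34 in each of these settings and as deposited. That equality is fixed by construction, because such scaling shifts all genes of a lane alike. The relative median was −0.16 after quantile normalization, 0.22 with the covariate, −0.65 with the filter on low values and −0.14 without TIA 24h replicate 2.

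**Figure D4:**
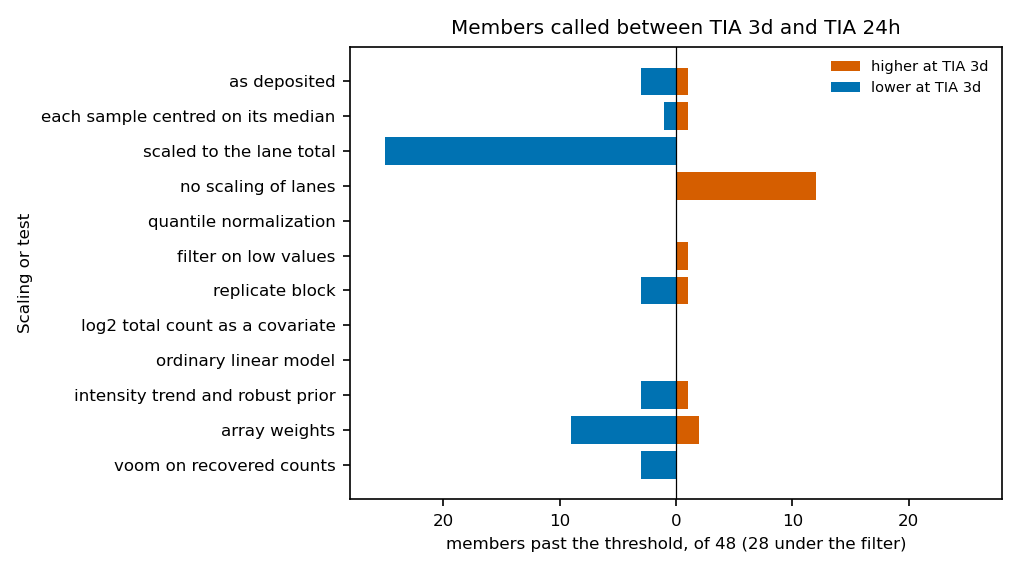
Number of members past an adjusted p of 0.05 between TIA 3d and TIA 24h, higher to the right and lower to the left, under the deposited scaling and each alternative scaling or test. The split runs from 0 higher and 25 lower (lane totals) to 12 higher and 0 lower (no scaling).

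By role, 1 of the 12 replication genes passed between the time points, Pcna, beside 19.2% of all genes. Fen1 was 1.41 ± 0.63 higher at TIA 3d than TIA 24h without passing (limma adjusted p = 0.111), and the other 10 differences were below 0, beside 57.9% of all genes, as far as −1.14 ± 0.41 for Cdc7 (adjusted p = 0.0617). The helicase subunits Mcm2, Mcm5 and Mcm6 differed by −1.07 ± 0.57, −0.42 ± 0.42 and −0.03 ± 0.56, none past the threshold (adjusted p = 0.177, 0.461 and 0.98). Mcm5 had 14, 20 and 20 counts for TIA 24h and 30, 30 and 54 for TIA 3d, with overlapping log2 levels of 4.46, 5.21 and 5.24 against 4.07, 4.68 and 4.89.

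The division marker Top2a had 7, 6 and 10 counts for TIA 24h and 12, 12 and 38 for TIA 3d, and its log2 levels differed by −0.23 ± 0.61 (limma adjusted p = 0.81, 95% interval −1.54 to 1.08). Rrm2, the ribonucleotide reductase subunit that supplies deoxynucleotides in S phase, differed by −0.80 ± 0.64 (adjusted p = 0.358). Neither passed the test. The other 4 replication genes, Dna2, Lig1, Pole and Rpa1, ran from 3 to 38 counts over the 9 lanes.

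Among the 13 checkpoint and cell cycle genes, E2f1 and Chek1 passed, beside 19.2% of all genes, and 10 of 13 differences between TIA 3d and TIA 24h were below 0, beside 57.9%. The kinases at the head of the cascades differed in sign, with Atm at −0.76 ± 0.38 and Atr at 0.54 ± 0.44, and neither passed (limma adjusted p = 0.147 and 0.362). Atm was without overlap on the log2 scale, at 4.46, 4.59 and 4.09 against 3.75, 3.58 and 3.52. The CDK inhibitor Cdkn1a, a main target of p53, differed by −0.70 ± 0.47 and the histone variant gene H2afx, whose product is phosphorylated around breaks, by −0.22 ± 0.42 (adjusted p = 0.284 and 0.716). The damage signalling genes Chek2, Hus1, Mdc1 and Rad9a and the phosphatase gene Cdc25a ran from 2 to 32 counts and differed by −1.40 to 0.63. The counts of H2afx were 20, 9 and 14 for TIA 24h and 39, 26 and 33 for TIA 3d.

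**Figure D5:**
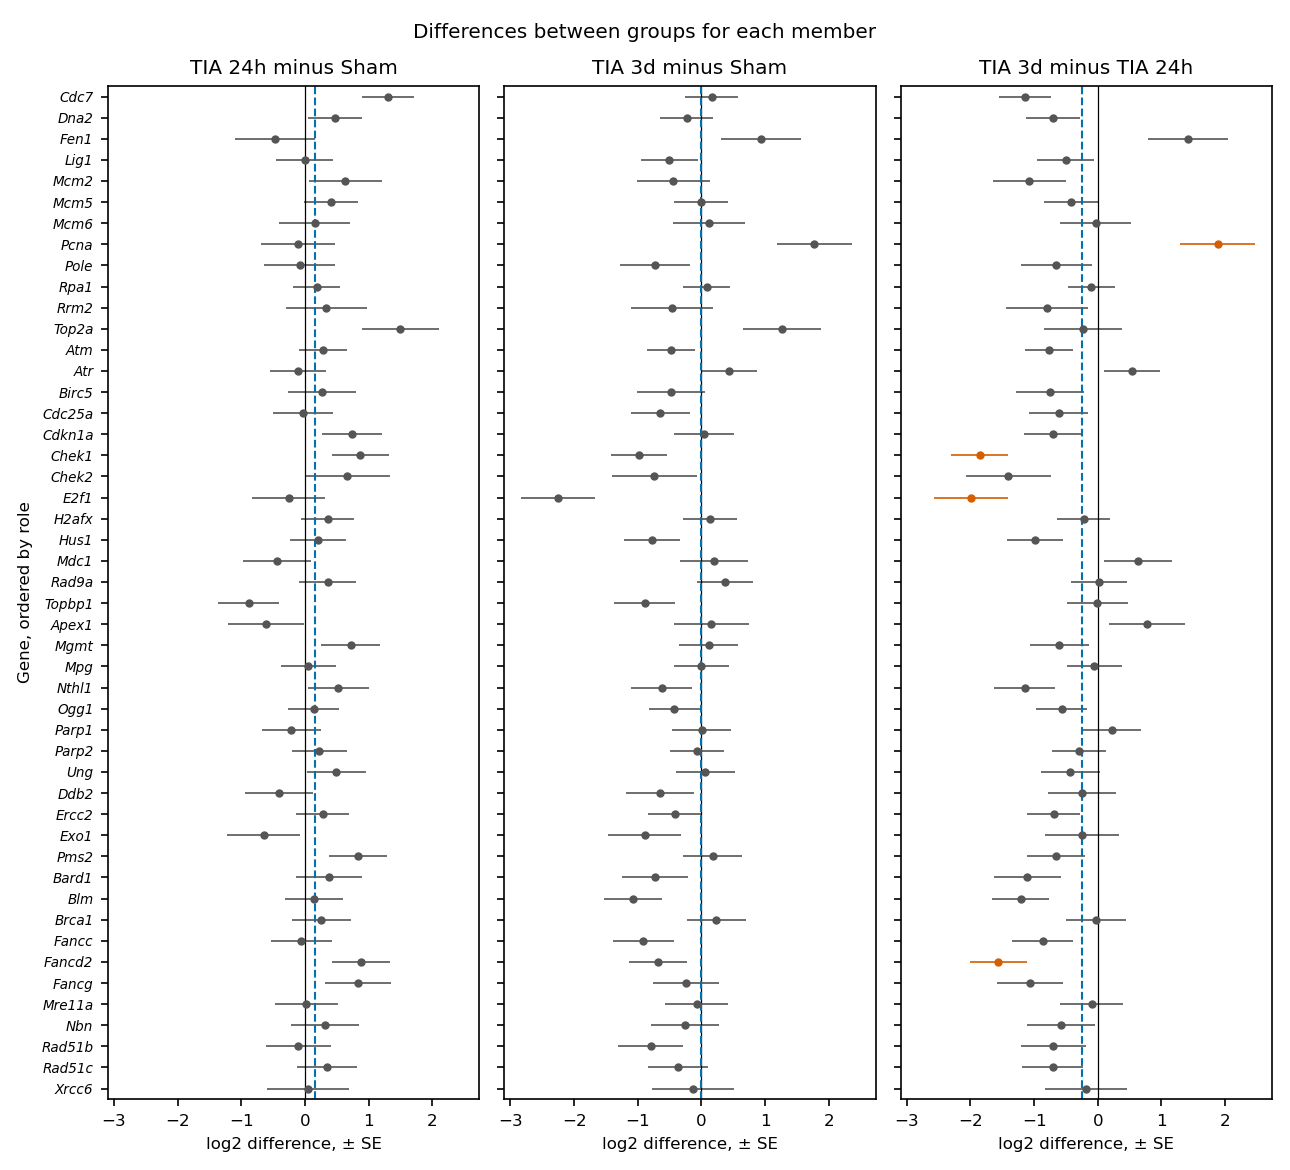
Log2 difference ± SE for each of the 48 members in the 3 comparisons, ordered by role from replication (top) to end joining (bottom). Orange marks members past an adjusted p of 0.05, and the dashed line is the median of all 757 genes. In the right panel 41 of 48 members lie below 0, with Pcna at 1.89 on the other side.

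Of the 8 genes of base excision repair and direct reversal, which remove oxidised, deaminated or alkylated bases, 0 passed in any comparison in limma, beside 19.2% of all genes between TIA 3d and TIA 24h and 0.00% against Sham, and at an unadjusted p under 0.05 there was 1, Nthl1, lower between TIA 3d and TIA 24h, beside 40.2% of all genes. Between TIA 3d and TIA 24h, Apex1 differed by 0.77 ± 0.59, the uracil glycosylase gene Ung by −0.43 ± 0.46 and the 8-oxoguanine glycosylase gene Ogg1 by −0.57 ± 0.40 (limma adjusted p = 0.341, 0.499 and 0.299). The alkyltransferase gene Mgmt differed by −0.60 ± 0.46 and Parp1, which marks strand breaks with poly(ADP-ribose), by 0.22 ± 0.46 (adjusted p = 0.343 and 0.745). Apex1 had counts of 11, 7 and 2 for Sham, 1, 4 and 4 for TIA 24h and 12, 10 and 14 for TIA 3d. The other 3 genes, Mpg, Nthl1 and Parp2, ran from 2 to 45 counts and differed by −1.15 to −0.06.

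All 10 genes of homologous recombination and the Fanconi pathway were below 0 between TIA 3d and TIA 24h, beside 57.9% of all genes, with a median of −0.79. Of the 10, Fancd2 alone passed, as lower, beside 7.53% of all genes. The next was Blm at −1.21 ± 0.45 (limma adjusted p = 0.0701). Brca1, which directs broken ends toward recombination, differed by −0.02 ± 0.47 and the nuclease gene Mre11a by −0.10 ± 0.49 (adjusted p = 0.984 and 0.903). The other 6 genes ran from 3 to 19 counts and differed by −1.10 to −0.58. Brca1 had only 3 to 12 counts in any lane.

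The 5 genes of the small groups showed no call in any comparison in limma, and 0 had an unadjusted p under 0.05. Of all genes, 19.2% were called between TIA 3d and TIA 24h and 40.2% had such a p, and against Sham 0.00% were called, with such a p for 7.53% at TIA 24h and 19.6% at TIA 3d. In nucleotide excision repair Ddb2 and Ercc2 differed by −0.25 ± 0.53 and −0.69 ± 0.42 between TIA 3d and TIA 24h (limma adjusted p = 0.756 and 0.233). Ddb2 had 23, 23 and 9 counts at TIA 3d against 9, 7 and 6 at TIA 24h. The mismatch repair genes Pms2 and Exo1 were at −0.66 ± 0.46 and −0.25 ± 0.58 (adjusted p = 0.294 and 0.776). The end joining gene Xrcc6, a subunit of Ku, was at −0.18 ± 0.65 (adjusted p = 0.857).

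Variation among the 3 samples of a group was set beside counting error. For the median member the variance within groups was 1.49 times that expected from Poisson counting, beside 1.76 over all genes. It was over 2 times for 14 of 48 members, or 29.2%, beside 42.8% of all genes, with Chek2 at 7.64 and Pcna at 5.64 times. Standard errors of the members' differences ran from 0.37 to 0.67 on the log2 scale.

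Of 97 other genes of replication, the cell cycle and repair, 18 were in the table. None passed against Sham in limma at either time point, while before adjustment p was under 0.05 for 1 gene at TIA 24h and for 3 at TIA 3d, beside 7.53% and 19.6% of all genes. Between TIA 3d and TIA 24h, 2 of 18 were higher and 0 lower, against 11.6% and 7.53% of all genes. These were the cyclin genes Ccng2 at 1.57 ± 0.46 and Ccni at 1.51 ± 0.49 (adjusted p = 0.0379 and 0.0474), neither of which is a cyclin of S phase or mitosis. The counts of Ccng2 were 40, 17 and 6 for Sham, 10, 7 and 8 for TIA 24h and 71, 62 and 70 for TIA 3d. Trp53, which encodes p53, differed by −0.30 ± 0.49 and the mitotic kinesin gene Kif2c by −1.24 ± 0.44 (adjusted p = 0.683 and 0.0579), without passing.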

How the data were processed

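RNA of CD45+CD11b+ 7-AAD negative cells was counted on an nCounter SPRINT instrument with a mouse neuroinflammation panel. The deposited values are on a log2 scale. Counts had been scaled by the authors to the geometric mean of the housekeeping probes in the same lane (ROSALIND, probes chosen by geNorm). In each lane 2 to the power of a value was a whole multiple of 1 step, within 0.01 counts for 100% of values, which gave the recovered counts. Totals were 6560 to 62883 per lane, and low counts limit the precision for most members. The methods leave out genes below the negative controls, and whether the deposited table was so filtered is not stated.

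All 757 genes were fitted in limma 3.58.1 (R 4.3.3) on the log2 values of the 9 samples, with group means and without covariates (prior degrees of freedom 7.23). The methods name an ANOVA with a permutation-based false discovery rate, which is another test, and the ordinary linear model among the alternatives is nearer to it. Contrasts were two-sided, and each test was adjusted over 757 genes (Benjamini-Hochberg), with a threshold of 0.05. The contrast of TIA 3d with TIA 24h is also the test of whether the changes against Sham differed. p values set differences between group means against the spread within the groups of these 9 samples.

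The members and lists were chosen with earlier results of these data known. Named were the members past the threshold, the 3 largest rises and falls per comparison, and 24 members whatever their values. Alternatives were median centring, lane totals, no scaling, quantile normalization, a filter on genes under the 0.25 quantile, the replicate number as a block, log2 total as a covariate, an ordinary linear model, an intensity trend, array weights, voom on the counts, and leaving out each sample. Symbols matched RefSeq (GRCm38.p6) for all 48 members, 1 through an older symbol. Promoter sequences are from RefSeq.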

Additional observations from a re-analysis of the deposited data

Results flagged for a closer look

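For 4 members TIA 3d and TIA 24h differed by the limma contrast, a share of 8.33% beside 19.2% of all genes. In limma 0 members passed against Sham at either time point, and 0 passed the F test. The difference between the time points was 1.89 for Pcna (adjusted p = 0.044), which was higher at TIA 3d in 3 of 3 samples. It was −1.85 for Chek1 (adjusted p = 0.0235), −1.99 for E2f1 (adjusted p = 0.0379) and −1.56 for Fancd2 (adjusted p = 0.0379), each lower at TIA 3d in 3 of 3 samples. On the counts Chek1, E2f1 and Fancd2 overlapped between the TIA groups. Of all genes, 26.3% were lower at TIA 3d without overlap of log2 values and 22.1% were higher. Over all alternatives the adjusted p ran from 0.00507 to 0.985 for Pcna, from 0.00366 to 0.973 for Chek1, from 0.00836 to 0.922 for E2f1 and from 0.00986 to 0.947 for Fancd2. Groups of 3 samples were not searched for outliers.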

How the results depend on the processing

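Between TIA 3d and TIA 24h, where 4 members passed in limma, the count was 2 after median centring, 25 with lane totals, 12 with no scaling, 11 with array weights, 1 with the filter on low values (28 members tested) and 0 with quantile normalization, the log2 total as a covariate or the ordinary linear model. The filter removed E2f1, Chek1 and Fancd2 before testing, so they were not retested under it. Of all genes, 19.2% passed as deposited, 19% after centring, 45.4% with lane totals, 44.1% with no scaling, 41.5% with array weights, 24.8% with the filter, 0.925% with quantile normalization and 0 with the covariate or the ordinary model. The count of members was 0 to 6 when single samples were left out, beside 0 to 29.9% of all genes, and 0 without TIA 24h replicate 2, TIA 24h replicate 3, TIA 3d replicate 1 or TIA 3d replicate 3, when no other gene passed either. An intensity trend left it at 4 and voom gave 3, beside 23.4% and 12.8% of all genes. The F test, with 0 members, gave 8 with lane totals, 5 with no scaling, 7 with array weights, 1 with an intensity trend, beside 23.9%, 33.7%, 37.5% and 6.61% of all genes, and 0 to 3 with single samples left out, beside 0 to 18% (18% without Sham replicate 1, 16.6% without Sham replicate 3). Between TIA 3d and Sham the count of 0 became 2 with array weights, beside 23% of all genes, and was 0 to 1 with single samples left out, beside 0 to 11.1%, and between TIA 24h and Sham it was 0 under every alternative. The members' median difference between TIA 24h and Sham was −0.23 with no scaling and −0.025 after quantile normalization, and 0.08 to 0.38 with single samples left out. Between TIA 3d and Sham it was −1.01 with lane totals, 0.74 with no scaling, 0.19 with the covariate, and −0.41 to −0.13 with single samples left out. Between TIA 3d and TIA 24h it was −0.25 after centring, −1.54 with lane totals, 0.87 with no scaling, −0.20 after quantile normalization, 0.20 with the covariate, and −0.66 to −0.38 with single samples left out. Differences between TIA 3d and TIA 24h that turned and had a call on at least 1 side were those of Pcna with the covariate (−0.58) and, with no scaling, of H2afx (1.24), Ung (1.03), Ddb2 (1.22) and Brca1 (1.44), none of the latter 4 with a call as deposited, in a setting that moved the median of all genes to 1.22. Of the other values of named members, 1411 kept direction and side of the threshold, 39 lost their call, 26 gained one, and 211 values without a call changed sign. The cause of these changes was not tested. The values that kept their side include those that never had a call, and only the 4 calls between TIA 3d and TIA 24h could be lost. Chek1 kept its call in 6 of 10 alternative settings and in 5 of 9 fits with a sample left out. For E2f1 it was 5 of 10 and 4 of 9, for Fancd2 5 of 10 and 3 of 9, and for Pcna 6 of 11 and 3 of 9.

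With the replicate number as a block, 4 members passed between TIA 3d and TIA 24h (1 higher, 3 lower), beside 18.5% of all genes, 1 passed the F test against 0 without it, beside 7.13% of all genes against 0.00%, and the other counts stayed at 0. Samples that share a number correlated in their deviations from the group means at −0.237 to 0.271, over 0.1 in 5 of 9 pairs, so the numbers were not taken to pair the samples.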
